A study of Sus scrofa with 19 samples.

Results

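Cytosolic ribosomal proteins are the protein subunits of the ribosomes that translate mRNAs in the cytoplasm, and their mRNAs were followed here in the adrenal glands of 19 male piglets. The members were the genes whose symbol in the array annotation starts with RPL or RPS and a digit, with RPLP0, RPLP1, RPLP2 and RPSA, leaving out the RPS6K kinases, and 1 probe set per symbol, the one with the highest mean signal. By this rule there were 43 genes, 26 with RPL symbols and 17 with RPS symbols, among 12218 genes with a symbol of their own on the array. They occupied 54 of 27558 probe sets. The rule used no measured difference between groups, but the members were chosen with earlier results of these data known. The symbol rule also admitted 2 genes that are not core ribosomal proteins, RPL7L1, an RPL7-like factor of ribosome assembly, and RPS19BP1, a protein that binds RPS19, and 3 paralogues, RPL26L1, RPL36AL and RPS27L. Genes are called large-subunit or small-subunit by their symbol in all counts, so these 5 are included.

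A ribosome joins a large subunit, which forms peptide bonds and carries the exit tunnel of the new chain, to a small subunit, which reads the mRNA. The subunits need their proteins in matched amounts, and the mRNAs of those proteins begin with a terminal oligopyrimidine (TOP) tract through which the kinase mTOR adjusts their translation in step with growth and nutrients. In the adrenal, ribosomes supply the steroid-making enzymes of the cortex and the catecholamine-making enzymes and granule proteins of the medulla. Translation of TOP mRNAs can change with no change in the amount of mRNA, which is all that an array measures.

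The piglets came from sows given a Control, Fish Oil or Microalgae diet from gestation day 75 and injected with Saline or LPS (lipopolysaccharide, a bacterial cell wall component that provokes inflammation) on gestation day 112. On the Control diet, saline-injected sows gave piglets 8, 14 and 21 (n = 3) and LPS-injected sows piglets 6, 16 and 17 (n = 3). On the Fish Oil diet they gave piglets 9, 11, 13 and 18 (n = 4) and piglets 10, 19, 20 and 24 (n = 4). The Microalgae diet had piglets 12, 15 and 22 (n = 3) from saline-injected sows and only piglets 7 and 23 (n = 2) from LPS-injected sows. Each sow gave 1 male piglet, weaned at 21 days. All 6 groups share the piglet's own LPS challenge at 28 days and collection of the whole gland 2 hours later, so no gland of an unchallenged piglet was measured, and no breed is named here. Values below are log2 signals in this piglet order within each group, and levels of different genes were not set against each other.

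The arrays had medians between 4.38 and 4.52 log2, and the standard deviation (SD) of all signals on an array, called array spread here, ran from 1.76 in piglet 24 and 1.81 in piglet 6 to 1.97 in piglet 22. Arrays 24 and 6 also had the lowest mean correlations with the other arrays, 0.952 and 0.961. Of the cortex markers measured, CYP17A1 was at 12.36 ± 0.19, HSD3B1 at 11.13 ± 0.30 and FDXR at 6.74 ± 0.28 (SD, n = 19). The medulla markers PNMT, at 7.14 ± 0.75, and CHGB, at 10.80 ± 0.57, varied more over the piglets. The glands also differed in fibroblast and capsule markers, whose mean deviation over 8 genes ran from -1.21 in piglet 24 to 1.19 in piglet 8. In a whole gland, fewer cells of a type and less RNA per cell cannot be told apart.

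Of the 43 genes, 41 had signals high enough to be tested, 25 of the large and 16 of the small subunit. The exceptions were RPL22 and RPS6, the small-subunit protein that S6 kinases phosphorylate, whose means of 2.25 and 2.33 log2 lay among the lowest 25% of probe sets, under 3.23. These are values of single probe sets, and they do not show that the mRNAs were scarce in the gland. Another 9 probe sets carry a ribosomal protein symbol together with a second symbol (for RPLP1, RPS15A, RPS18, RPS19, RPS23, RPS27, RPL10, RPL23A and RPL35A), and they were not used. Of 84 pig RefSeq symbols that fit the rule, 41 had no probe set of their own by symbol and were not analysed here.

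The median SD of the tested ribosomal protein signals over the 19 piglets was 0.20 log2, against 0.26 for all 20668 probe sets tested, with 0.20 for large-subunit and 0.21 for small-subunit genes. Genes with proteasome subunit prefixes had the same median SD (0.20) and ribosome quality control genes a lower one (0.18), so this spread did not set the ribosomal proteins apart. RPS26, which lines the mRNA exit of the small subunit, varied least, with an SD of 0.12 and a range from 5.24 in piglet 8 to 5.80 in piglet 20. RPL7 (SD 0.13), RPL21 (0.13), RPL34 (0.14) and RPL30 (0.14) followed. Some values were tied between arrays: RPS26 read 5.5751 in piglets 9, 15, 16 and 21, and RPL7 read 5.868 in piglets 6, 7 and 12. Whether such ties narrowed these SDs was not tested. RPL7L1 varied most, with an SD of 0.44 and signals from 6.72 in piglet 6 to 8.49 in piglet 22. After it came RPS12 (0.40) and RPS10 (0.39), small-subunit proteins, RPL27A (0.37) and the paralogue RPL36AL (0.30).

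A few piglets held many of the extremes. Piglet 10, a fish oil piglet after maternal LPS, had the highest signal of all 19 for 12 of the 41 genes, and 34 of 41 lay above their own mean in it. Piglet 18, fish oil after saline, had the lowest signal for 9 genes, piglet 7, microalgae after LPS, for 8, and piglet 8, control diet after saline, for 6. The mean deviation of the 41 genes from their own means was 0.19 in piglet 10, -0.16 in piglets 7 and 8, and -0.13 in piglet 18. Within every group but control after LPS the mean deviation of the piglets lay on both sides of 0, for example from -0.13 to 0.062 in fish oil after saline and from -0.073 to 0.19 in fish oil after LPS.

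**Figure D1:**
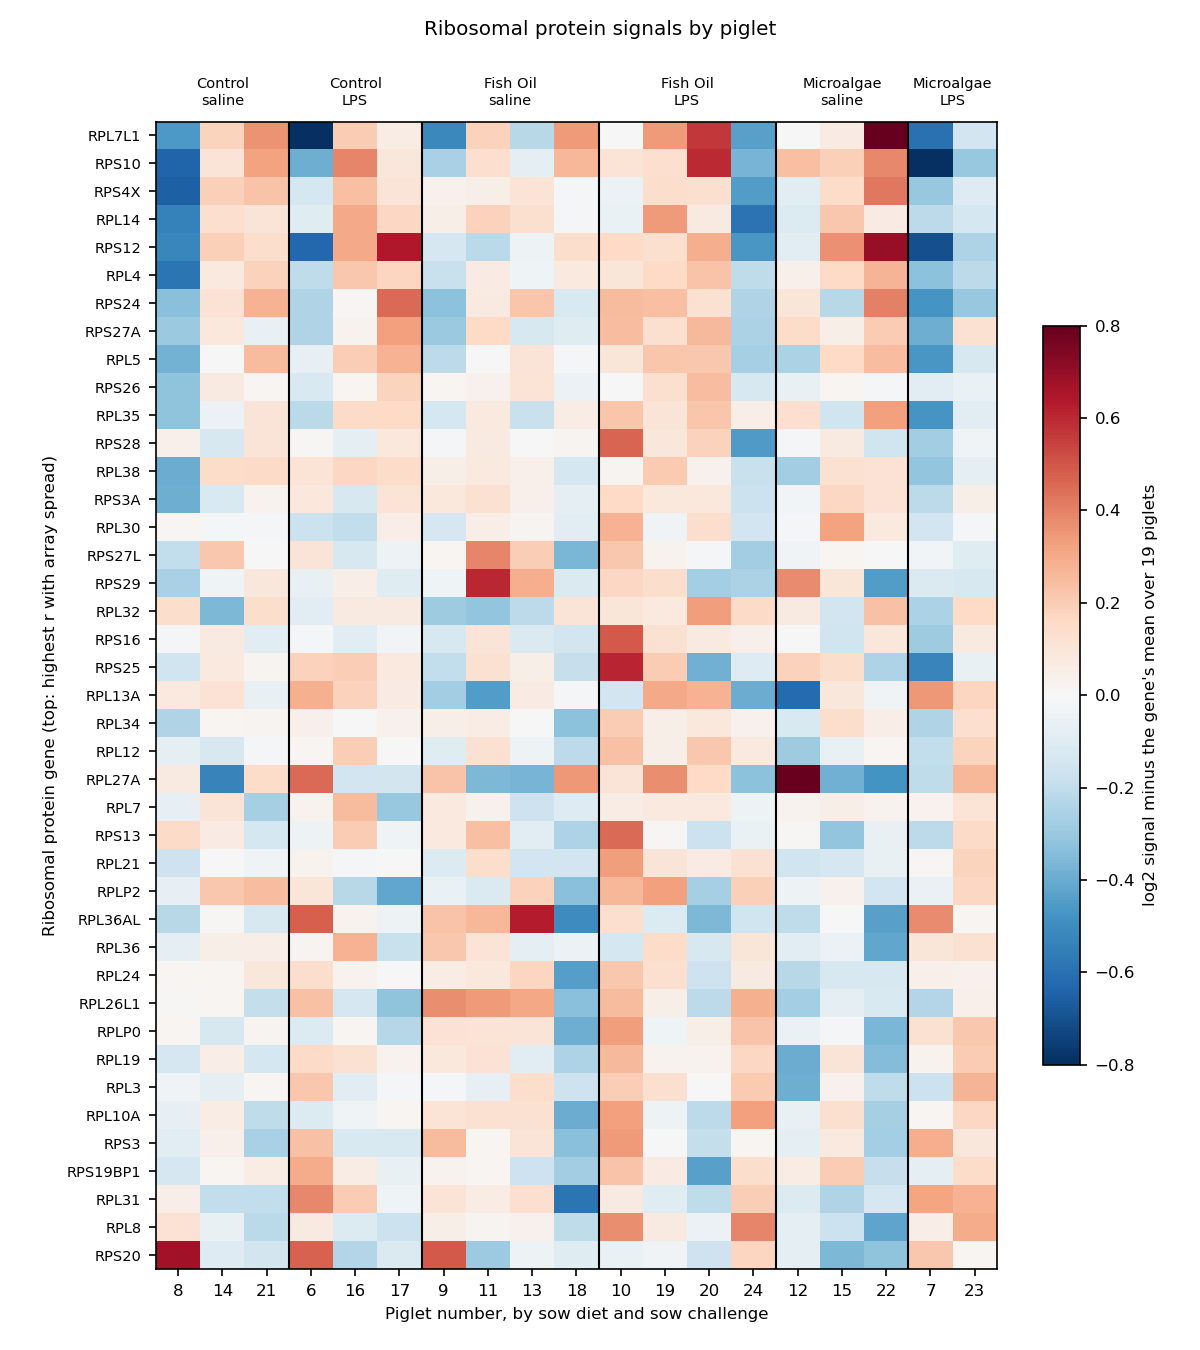
Log2 signal of the 41 tested genes in each of the 19 piglets, as the difference from the gene's own mean (colour, capped at -0.8 and 0.8), with genes ordered from the highest (RPL7L1, r 0.82) to the lowest (RPS20, r -0.66) correlation with array spread and piglets ordered by group. Piglet 10 is above the mean for 34 genes, piglet 18 for 8, and the columns of 1 group differ from each other.

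The first comparison asked whether LPS given to the sow in late gestation left a difference in these mRNAs, taken as LPS minus saline averaged over the 3 diets with equal weight. No ribosomal protein gene was called higher or lower. At an adjusted p of 0.05 in limma (Benjamini-Hochberg over every probe set tested) 0 of 41 passed, where 0.00968% of all probe sets did. The smallest adjusted p was 0.67, for RPL31. At an unadjusted p under 0.05, 4 of 41 were higher, against 3.37% of all probe sets, and 0 were lower, against 3.59%. By direction alone 26 of 41 were higher, with a median difference of 0.046 log2, beside 51.8% and 0.0070 for all probe sets. With each array centred on its median the split was 21 of 41, with a median of 0.0009 and 1 gene at an unadjusted p under 0.05. Centring lowered the difference of every probe set by the same amount, and the share of all probe sets after it is not given here. Without piglet 23 and without centring, 19 of 41 genes were higher, with a median of -0.0074. The 95% intervals of all 41 genes lay between -0.66 and 0.51, with a median half-width of 0.22. Differences smaller than about that half-width could not be resolved with 19 arrays. These intervals are not adjusted, and larger differences, such as 0.27 for RPL31, did not pass the adjusted threshold either.

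**Figure D2:**
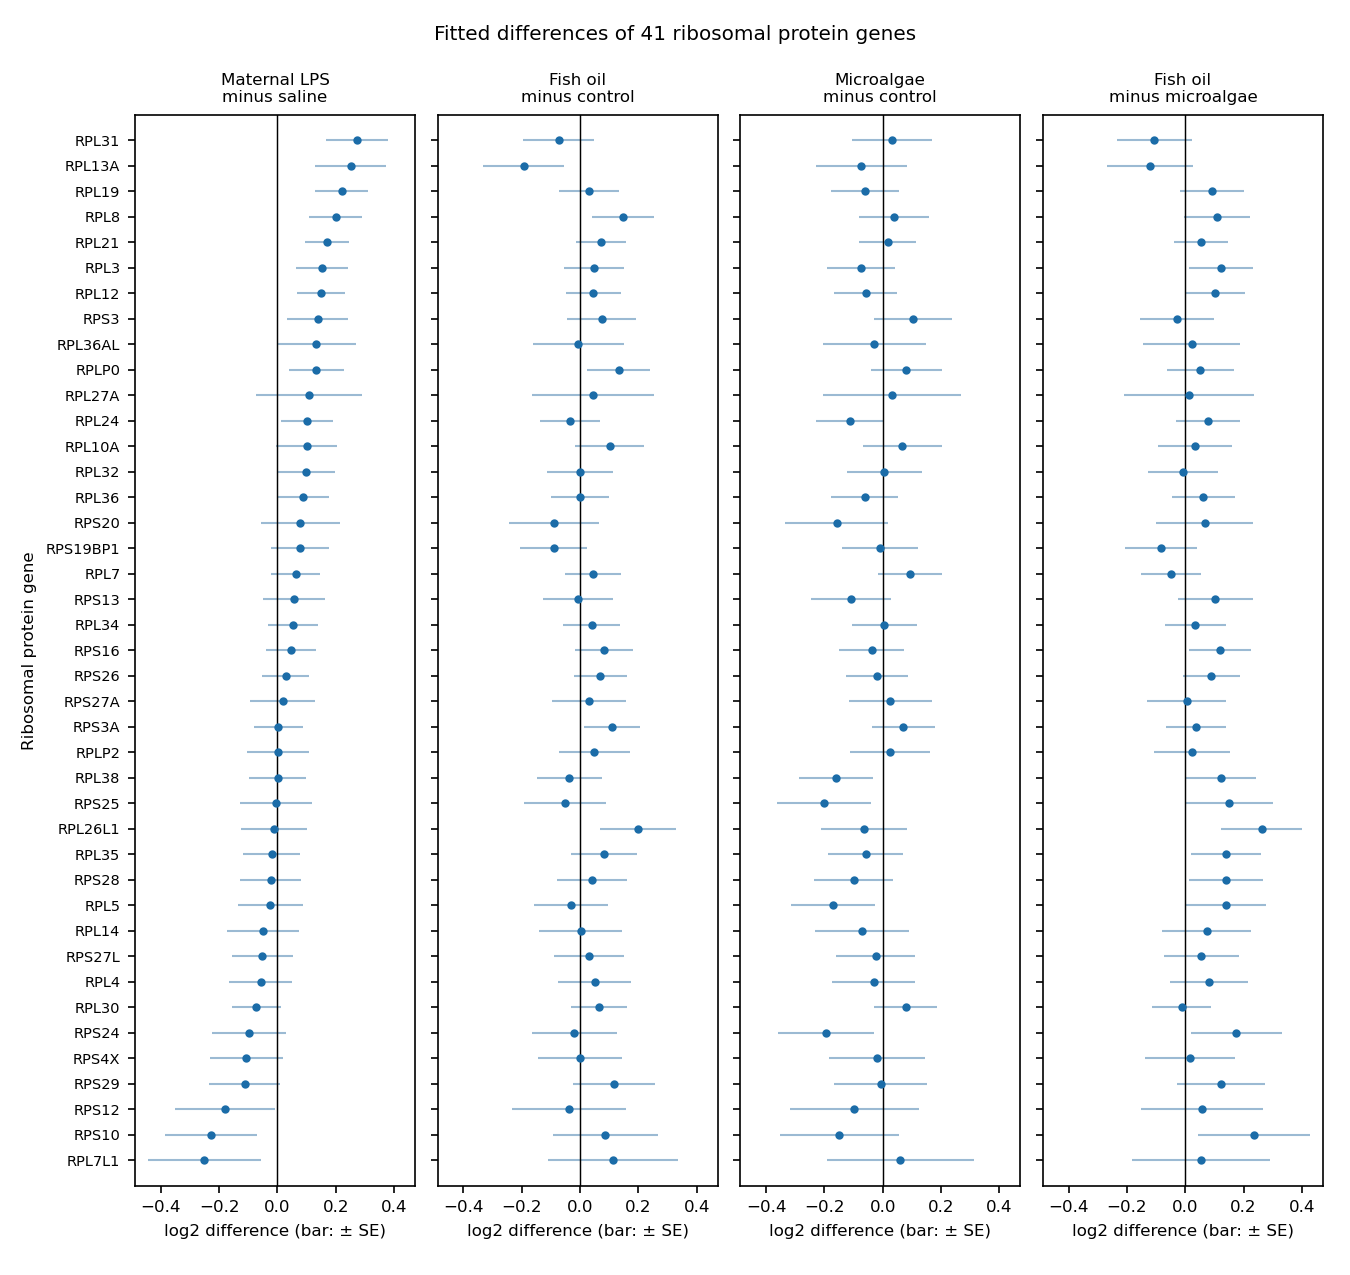
Fitted log2 difference of each of the 41 genes (points, with the SE as bars) for maternal LPS, fish oil, microalgae, and fish oil against microalgae, in the order of the maternal LPS difference. RPL31 (0.27) and RPL7L1 (-0.25) stand at the ends of the first panel, and in the last panel 34 of 41 points lie to the right of 0.

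Large-subunit genes made up all 4 that were higher at an unadjusted p under 0.05. Of the 25, 18 were higher after maternal LPS, with a median difference of 0.097, against 8 of 16 small-subunit genes, with a median of -0.00068, and the difference between the subunits was not tested. RPL31 (probe set 15275469), a protein at the mouth of the exit tunnel, had the largest positive difference. RPL31 in control-diet piglets read 6.49, 6.24 and 6.24 after maternal saline and 6.83, 6.64 and 6.41 after maternal LPS. RPL31 in fish oil piglets read 6.55, 6.50, 6.57 and 5.85 after maternal saline and 6.51, 6.35, 6.24 and 6.64 after maternal LPS. RPL31 in microalgae piglets read 6.33, 6.20 and 6.30 after maternal saline and 6.76 and 6.72 after maternal LPS. In microalgae offspring both LPS piglets were above all 3 saline piglets, while in the other diets the groups overlapped and piglet 18 was the lowest of all. The fitted difference of RPL31 was 0.27 ± 0.11 (SE; unadjusted p 0.019, adjusted p 0.67 in limma).

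RPL19 forms a bridge between the subunits, and its probe set gave the second smallest p. RPL19 in control-diet piglets measured 8.03, 8.22 and 8.03 in saline offspring and 8.32, 8.29 and 8.19 in LPS offspring. RPL19 in fish oil piglets was 8.26, 8.29, 8.08 and 7.92 in saline offspring and 8.43, 8.19, 8.20 and 8.33 in LPS offspring. RPL19 in microalgae piglets came to 7.77, 8.27 and 7.82 in saline offspring and 8.20 and 8.37 in LPS offspring. Every group of saline piglets overlapped the LPS piglets of its diet, and piglets 12 and 22 were the lowest. RPL19 differed by 0.22 ± 0.090 (unadjusted p 0.025, adjusted p 0.69 in limma).

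RPL8 is a core protein near the site of peptide bond formation. RPL8 in control-diet piglets was at 8.25, 8.08 and 7.92 without maternal LPS and 8.21, 8.03 and 7.96 with it. RPL8 in fish oil piglets stood at 8.18, 8.16, 8.17 and 7.94 without maternal LPS and 8.51, 8.21, 8.09 and 8.52 with it. RPL8 in microalgae piglets was at 8.06, 7.96 and 7.72 without maternal LPS and 8.19 and 8.43 with it. Among control-diet piglets the means were 8.09 and 8.06, so the higher signals after maternal LPS were those of the fish oil piglets 10 and 24 and of the microalgae piglets. RPL8 differed by 0.20 ± 0.092 (unadjusted p 0.044, adjusted p 0.70 in limma).

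RPL21, another structural protein of the large subunit, was among the genes with the least spread. RPL21 in control-diet piglets read 8.05, 8.22 and 8.19 after maternal saline and 8.25, 8.21 and 8.22 after maternal LPS. RPL21 in fish oil piglets read 8.11, 8.36, 8.07 and 8.07 after maternal saline and 8.55, 8.32, 8.29 and 8.34 after maternal LPS. RPL21 in microalgae piglets read 8.06, 8.08 and 8.16 after maternal saline and 8.23 and 8.40 after maternal LPS. Microalgae groups did not overlap, and in fish oil offspring only piglet 11 of the saline group reached the range of the LPS group. RPL21 differed by 0.17 ± 0.075 (unadjusted p 0.038, adjusted p 0.70 in limma).

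Other large-subunit genes had larger differences with wider errors, or smaller ones. RPL13A can, besides its place in the ribosome, be released to silence inflammatory mRNAs. RPL13A in control-diet piglets read 5.94, 5.98 and 5.80 after maternal saline and 6.15, 6.05 and 5.93 after maternal LPS. RPL13A in fish oil piglets read 5.58, 5.41, 5.93 and 5.85 after maternal saline and 5.71, 6.17, 6.14 and 5.46 after maternal LPS. RPL13A in microalgae piglets read 5.25, 5.95 and 5.84 after maternal saline and 6.21 and 6.03 after maternal LPS. Piglets 12, 11 and 24 were the lowest and piglet 7 the highest, and the groups overlapped in the control and fish oil diets. RPL13A differed by 0.25 ± 0.12 (unadjusted p 0.052, adjusted p 0.70 in limma). A second RPL13A probe set went the other way (-0.39), and with both averaged the difference was -0.071. RPL3, which organises the peptidyl transferase centre, differed by 0.15 ± 0.089 and RPL12, at the base of the stalk, by 0.15 ± 0.083. The stalk proteins themselves, which recruit elongation factors, stood at 0.13 ± 0.094 for RPLP0 and 0.0010 ± 0.11 for RPLP2. RPL5, which carries the small ribosomal RNA of the large subunit, and RPL4, whose loop lines the exit tunnel, were at -0.025 ± 0.11 and -0.057 ± 0.11. RPL38 was at 0.00066 ± 0.097, and the paralogues RPL36AL and RPL26L1 at 0.13 ± 0.14 and -0.012 ± 0.11.

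RPL7L1 (probe set 15309818) had the lowest difference of the whole set, with the widest error. RPL7L1 in control-diet piglets measured 7.11, 7.74 and 7.92 in saline offspring and 6.72, 7.77 and 7.62 in LPS offspring. RPL7L1 in fish oil piglets was 7.04, 7.74, 7.34 and 7.90 in saline offspring and 7.56, 7.90, 8.13 and 7.13 in LPS offspring. RPL7L1 in microalgae piglets came to 7.56, 7.63 and 8.49 in saline offspring and 6.96 and 7.41 in LPS offspring. Saline and LPS piglets overlapped in the control and fish oil diets, where piglets 6 and 24 were low among the LPS piglets, and in microalgae offspring both LPS piglets were below all 3 saline piglets. RPL7L1 differed by -0.25 ± 0.19 (unadjusted p 0.21, adjusted p 0.76 in limma), and by -0.028 with array spread as a covariate.

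Small-subunit genes had the other low differences. RPS10 was at -0.23 ± 0.16, RPS12 at -0.18 ± 0.17, RPS29 at -0.11 ± 0.12 and RPS4X at -0.11 ± 0.13, with adjusted p from 0.74 to 0.84 in limma. RPS3, which helps to unwind mRNA at the entry of the small subunit, was at 0.14 ± 0.10, and RPS20, a protein of the head of the small subunit, at 0.078 ± 0.14. The paralogue RPS27L was at -0.051 ± 0.10. RPS27A, made as a fusion with ubiquitin, was at 0.018 ± 0.11, RPS3A at 0.0027 ± 0.084 and RPS25 at -0.0041 ± 0.12. With array spread as a covariate, 32 of 41 genes were higher and RPS4X was at 0.0070 instead. The share of all probe sets higher in that model is not given here.

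Cell type markers measured in the same glands were also unequal after maternal LPS. All 5 cortex markers were lower, with a median of -0.14, and 4 of 5 medulla markers, with a median of -0.22, and 0 of these 10 passed the adjusted threshold in limma or an unadjusted p of 0.05. Of 9 macrophage and neutrophil markers 5 were higher (median 0.063). S100A9 was at 0.32 ± 0.096 (unadjusted p 0.0036 in limma) and ITGAM at 0.37 ± 0.14 (0.020), but S100A12 was at -0.375 ± 0.21 (0.095). Both red cell markers were higher (median 0.26). Lymphocyte markers were higher for 7 of 12 (0.035), and 4 of 8 fibroblast and capsule markers were, with POSTN at -1.32 ± 0.45 (0.0098). With the medulla score of each piglet as a covariate, 27 of 41 ribosomal protein genes were higher after maternal LPS and the median was 0.043. The matching share of all probe sets is not given here. For the cortex, whose 5 markers had group means of their deviation between -0.14 and 0.12, and for the other cell types, a part in the differences was not tested.

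The maternal LPS difference was also taken within each diet, and the diets' medians were not tested against each other. In the control diet 32 of 41 genes were higher (50.3% of all probe sets), with a median of 0.091, and 0 passed an unadjusted p of 0.05 (0.982% higher and 0.755% lower over all). In the fish oil diet 32 were higher (51.1%), with a median of 0.096 and 1 at an unadjusted p under 0.05 (1.39%), RPL32, at 0.34 ± 0.15, and 0 in the other direction (2.88%). Without piglet 8 the control-diet median was 0.013. In the microalgae diet 20 were higher (53.3%), with a median of -0.049, 2 higher (5.86%) and 2 lower (5.81%) at an unadjusted p under 0.05. In this diet the array medians themselves averaged 4.52 after LPS and 4.42 after saline. With each array centred on its median, which lowered the difference of every probe set alike, the ribosomal protein median was -0.15. The microalgae median turned to 0.11 without piglet 7 and was -0.099 without piglet 23. The 2 higher genes were RPL31, at 0.46 ± 0.20 (unadjusted p 0.038, adjusted p 0.41 in limma), and RPL8, at 0.40 ± 0.18 (unadjusted p 0.039, adjusted p 0.41 in limma), and the 2 lower genes were RPS10 and RPS12. No gene passed the adjusted threshold in limma in any diet, and neither did any probe set.

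RPL32, a protein on the surface of the large subunit, was that gene of the fish oil diet. RPL32 in control-diet piglets measured 4.95, 4.45 and 4.95 in saline offspring and 4.72, 4.88 and 4.88 in LPS offspring. RPL32 in fish oil piglets was 4.53, 4.49, 4.60 and 4.91 in saline offspring and 4.91, 4.89, 5.14 and 4.96 in LPS offspring. RPL32 in microalgae piglets came to 4.88, 4.65 and 5.04 in saline offspring and 4.55 and 4.97 in LPS offspring. All 4 fish oil piglets of LPS sows were above piglets 9, 11 and 13, and piglet 18 lay among them, while in the other diets the groups overlapped.

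The groups were also compared for overlap, gene by gene. In the control diet RPL12 and RPS25 had all 3 LPS piglets above all 3 saline piglets, 2 of 41 genes, where 3.06% of all probe sets did, and 0 had them below (2.92%). RPL12 was the clearer of these, since RPS25 was nearly tied, at 7.8886 in LPS piglet 17 and 7.8882 in saline piglet 14. RPL12 in control-diet piglets was at 9.07, 9.02 and 9.13 without maternal LPS and 9.17, 9.35 and 9.15 with it. RPL12 in fish oil piglets stood at 9.05, 9.28, 9.11 and 8.94 without maternal LPS and 9.39, 9.20, 9.37 and 9.23 with it. RPL12 in microalgae piglets was at 8.86, 9.09 and 9.17 without maternal LPS and 8.96 and 9.33 with it. In the other diets its groups overlapped, and piglet 12 was the lowest of all. In the fish oil diet 0 genes were separated either way (0.745% and 1.44%). In the microalgae diet, 10 genes had both LPS piglets above all 3 saline piglets, 24.4% against 16.9% of all probe sets, and 7 below, 17.1% against 14.7%. Those above were RPL8, RPL13A, RPL21, RPL24, RPL31, RPL36, RPL36AL, RPLP0, RPS3 and RPS20, and those below were RPL4, RPL7L1, RPL14, RPS4X, RPS10, RPS12 and RPS24. The share below lies near that of all probe sets, the share above was larger than it, and neither gap was tested.

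In microalgae offspring, 12 of 16 small-subunit genes were lower after maternal LPS, with a median of -0.13, and 16 of 25 large-subunit genes were higher, with a median of 0.10. Of all probe sets 53.3% were higher in this diet. The small-subunit mean deviation was -0.26 in piglet 7 and -0.043 in piglet 23, against 0.030 to 0.041 in the saline piglets. The large-subunit mean deviation was -0.098 and 0.088 in the same piglets, against -0.11 to 0.0022. The subunits were not tested against each other, and the groups hold 2 and 3 piglets. RPS10 (probe set 15309167) sits at the mRNA entry and is marked with ubiquitin when ribosomes collide. RPS10 in control-diet piglets was at 9.80, 10.55 and 10.77 without maternal LPS and 10.05, 10.83 and 10.53 with it. RPS10 in fish oil piglets stood at 10.18, 10.57, 10.36 and 10.71 without maternal LPS and 10.55, 10.58, 11.04 and 10.07 with it. RPS10 in microalgae piglets was at 10.68, 10.63 and 10.83 without maternal LPS and 9.52 and 10.14 with it. Piglet 7 was the lowest of all, followed by piglet 8 of the control diet. Maternal LPS in the microalgae diet gave -0.89 ± 0.31 for RPS10 (unadjusted p 0.0097, adjusted p 0.31 in limma), the smallest unadjusted p of the 41 genes over all 13 comparisons.

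RPS12, a protein of the beak of the small subunit, followed the same pattern. RPS12 in control-diet piglets read 10.53, 11.24 and 11.20 after maternal saline and 10.43, 11.36 and 11.70 after maternal LPS. RPS12 in fish oil piglets read 10.92, 10.84, 11.02 and 11.20 after maternal saline and 11.21, 11.19, 11.34 and 10.59 after maternal LPS. RPS12 in microalgae piglets read 10.96, 11.42 and 11.75 after maternal saline and 10.35 and 10.81 after maternal LPS. Low signals were also found in piglets 6, 8 and 24 of the other diets. The microalgae difference was -0.80 ± 0.33 for RPS12 (unadjusted p 0.027, adjusted p 0.38 in limma).

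RPL4 had low values in every diet. RPL4 in control-diet piglets measured 10.11, 10.77 and 10.87 in saline offspring and 10.49, 10.90 and 10.86 in LPS offspring. RPL4 in fish oil piglets was 10.52, 10.76, 10.65 and 10.77 in saline offspring and 10.79, 10.85, 10.92 and 10.49 in LPS offspring. RPL4 in microalgae piglets came to 10.73, 10.85 and 10.97 in saline offspring and 10.36 and 10.48 in LPS offspring. Piglet 8 of the control diet was the lowest, then piglets 7, 23, 6 and 24, and both microalgae LPS piglets were below the 3 saline piglets. In the microalgae diet the maternal LPS difference was -0.43 ± 0.21 (unadjusted p 0.059, adjusted p 0.44 in limma).

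The interaction asked whether the maternal LPS difference in each supplemented diet departed from that in the control diet, and 0 genes passed the adjusted threshold in limma. For microalgae, 16 of 41 were higher (52.0% of all probe sets), 0 at an unadjusted p under 0.05 in that direction (2.87%) and 2 in the other (2.54%), RPS10 at -0.99 ± 0.41 and RPS12 at -0.97 ± 0.44, both with an adjusted p of 0.86. RPL4 was at -0.59 ± 0.28, and on the other side RPLP2 was at 0.42, RPL8 at 0.42 and RPLP0 at 0.39. For fish oil, 22 of 41 were higher (49.7%), 1 at an unadjusted p under 0.05 (1.04%) and 0 in the other direction (1.60%).

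That gene was RPLP2, an acidic protein of the stalk. RPLP2 in control-diet piglets was at 7.44, 7.72 and 7.75 without maternal LPS and 7.60, 7.28 and 7.08 with it. RPLP2 in fish oil piglets stood at 7.45, 7.39, 7.68 and 7.17 without maternal LPS and 7.76, 7.83, 7.24 and 7.69 with it. RPLP2 in microalgae piglets was at 7.46, 7.53 and 7.35 without maternal LPS and 7.45 and 7.66 with it. The control-diet mean was lower with maternal LPS than without (7.32 and 7.63) and the fish oil mean higher (7.63 and 7.42), while the groups overlapped in each diet. The interaction of RPLP2 was 0.52 ± 0.24 (unadjusted p 0.046, adjusted p 1 in limma). RPS16 (0.28) and RPL32 (0.29) lay on the same side, and the paralogue RPL36AL (-0.55), RPL14 (-0.37) and RPS3A (-0.19) on the other.

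**Figure D3:**
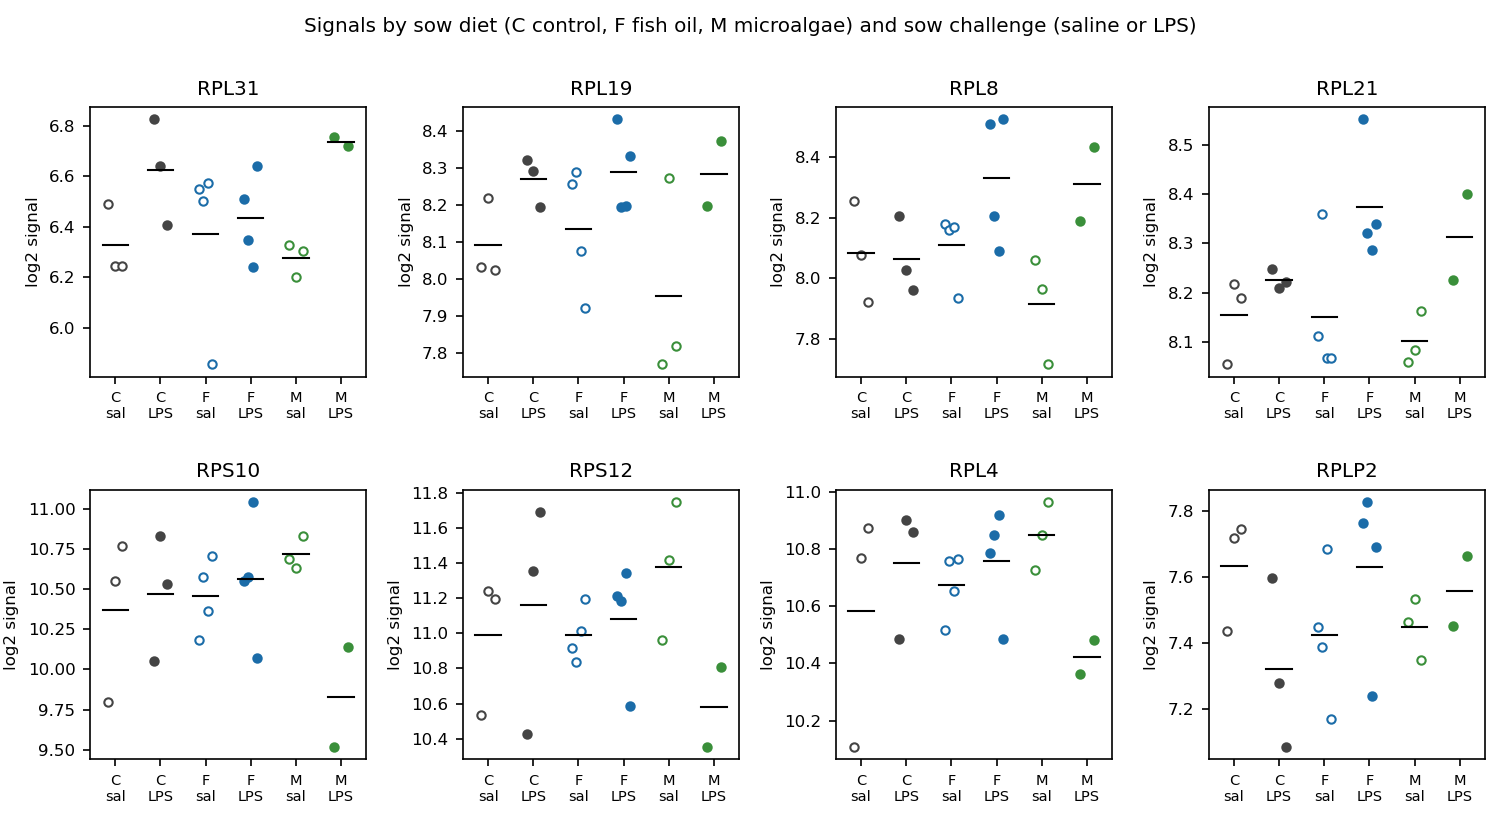
Log2 signal of 8 genes in each piglet (points; open for maternal saline, filled for maternal LPS) with the group mean (line), for control (C), fish oil (F) and microalgae (M) diets. RPL31 and RPL21 of the microalgae diet are higher with maternal LPS, RPS10, RPS12 and RPL4 are lower, and low points of the last 3 genes occur in the other diets too.

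The diets were compared over both maternal challenges. With fish oil against the control diet, 26 of 41 genes were higher (50.4% of all probe sets), with a median of 0.042. After centring each array on its median, which shifted all probe sets alike, 32 were higher, and the share of all probe sets is not given here. Without piglet 8 and without centring, the count was 22 and the median 0.0093. None passed the adjusted threshold in limma, as 0% of all probe sets did, and 0 passed an unadjusted p of 0.05 (1.39% higher and 1.29% lower over all). RPL26L1, a close copy of RPL26, was at 0.20 ± 0.13, RPL8 at 0.15 ± 0.11, RPLP0 at 0.13 ± 0.11, RPS29 at 0.12 ± 0.14 and RPL7L1 at 0.11 ± 0.22. RPL13A was at -0.19 ± 0.14, RPS19BP1 at -0.091 ± 0.12, RPS20 at -0.090 ± 0.16, RPL31 at -0.073 ± 0.12 and RPS25 at -0.052 ± 0.14. After maternal LPS, all 4 fish oil piglets were above all 3 control piglets for RPL21, RPL32 and RPS16, 3 of 41 genes (1.78% of all probe sets), and 0 genes were below (1.58%). After saline 0 were separated either way (2.21% and 1.91%). Markers of fibroblasts and the capsule moved with this comparison: 7 of 8 were lower with fish oil, 5 at an unadjusted p under 0.05, with a median of -0.77. Their mean deviation in single piglets ran from -0.30 to 1.19 in control after saline and from -1.16 to 0.68 in control after LPS, against -1.10 to 0.054 and -1.21 to 0.48 in the fish oil groups. All 5 cortex markers (median 0.15), all 6 endothelial markers (0.13), 10 of 12 lymphocyte markers (0.20, 2 at an unadjusted p under 0.05) and 8 of 9 macrophage and neutrophil markers (0.25) were higher. Of the medulla markers 4 of 5 were lower (-0.23), and the part of these cell types in the ribosomal protein values was not tested.

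With microalgae against the control diet, 15 of 41 genes were higher (51.0% of all probe sets), with a median of -0.028, and only 3 of the 16 small-subunit genes. None passed the adjusted threshold (0% of all probe sets) in limma or an unadjusted p of 0.05 (0.856% and 0.789%). RPS25, which some viral and cellular mRNAs need for internal initiation, was at -0.20 ± 0.16, RPS24 at -0.19 ± 0.17, RPL5 at -0.17 ± 0.14, RPL38 at -0.16 ± 0.13 and RPS20 at -0.16 ± 0.18. RPS3 was at 0.10 ± 0.13, RPL7 at 0.094 ± 0.11, RPLP0 at 0.081 ± 0.12, RPL30 at 0.078 ± 0.11 and RPS3A at 0.071 ± 0.11. The count rests on the 2 microalgae piglets of LPS sows, since it was 24 without piglet 7 and 8 without piglet 23. After maternal LPS both were below all 3 control piglets for RPL4, RPL5, RPL14, RPL38, RPS24, RPS25 and RPS29, 7 of 41 genes, 17.1% against 8.06% of all probe sets, and above them for RPLP0 (10.1%). After saline, RPL24 was lower without overlap (4.25%) and 0 genes were higher (3.59%). All 6 endothelial markers (median -0.15) and 7 of 8 fibroblast and capsule markers (-0.14) were lower with microalgae, while 11 of 12 lymphocyte markers (0.19), 6 of 9 macrophage and neutrophil markers (0.11) and 4 of 5 medulla markers (0.092) were higher. Their part in the ribosomal protein values was not tested.

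RPS25 had the lowest of these microalgae differences. RPS25 in control-diet piglets read 7.65, 7.89 and 7.83 after maternal saline and 7.99, 8.003 and 7.89 after maternal LPS. RPS25 in fish oil piglets read 7.61, 7.93, 7.85 and 7.63 after maternal saline and 8.42, 8.01, 7.42 and 7.71 after maternal LPS. RPS25 in microalgae piglets read 7.99, 7.95 and 7.56 after maternal saline and 7.28 and 7.75 after maternal LPS. Piglet 7 was the lowest and piglet 10 the highest, while piglets 12 and 15 were as high as the control piglets, so that the low mean rested on piglets 7, 22 and 23.

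Fish oil against microalgae gave the most uneven split of the 4 comparisons. Of 41 genes 34 were higher with fish oil (48.7% of all probe sets), with a median of 0.061 against -0.0042 for all probe sets, and 14 of the 16 small-subunit genes. None passed the adjusted threshold in limma, as 0% of all probe sets did, and 0 passed an unadjusted p of 0.05 (1.55% and 1.30%). After centring on the array median the count was 37. Centring raised the difference of every probe set alike, and the share of all probe sets after it is not given here. Without piglet 7 and without centring, the count was 26. The comparison shares its fish oil and microalgae piglets with those against the control diet. All 6 endothelial markers were higher with fish oil than with microalgae (median 0.29), as were all 5 cortex markers (0.11), while 7 of 8 fibroblast and capsule markers (-0.52) and all 5 medulla markers (-0.32) were lower, and their part in these values was not tested.

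RPL26L1 had the smallest p between the supplements. RPL26L1 in control-diet piglets read 5.80, 5.81 and 5.60 after maternal saline and 6.02, 5.66 and 5.47 after maternal LPS. RPL26L1 in fish oil piglets read 6.16, 6.13, 6.10 and 5.46 after maternal saline and 6.04, 5.84, 5.58 and 6.07 after maternal LPS. RPL26L1 in microalgae piglets read 5.52, 5.71 and 5.67 after maternal saline and 5.55 and 5.83 after maternal LPS. Piglets 9, 11 and 13 of fish oil after saline were the highest of all, and piglets 18 and 17 the lowest. RPL26L1 was 0.26 ± 0.14 higher with fish oil (unadjusted p 0.077, adjusted p 1 in limma), followed by RPS10 at 0.24 ± 0.19, RPS24 at 0.18 ± 0.16, RPS25 at 0.15 ± 0.15 and RPS28 at 0.14 ± 0.13. RPL13A was at -0.12 ± 0.15, RPL31 at -0.11 ± 0.13, RPS19BP1 at -0.082 ± 0.12, RPL7 at -0.049 ± 0.10 and RPS3 at -0.028 ± 0.13.

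Other groups of genes, chosen by symbol, split likewise between the supplements, without any member past the adjusted threshold in limma. Fish oil was higher for 50 of 53 mitochondrial ribosomal proteins, which belong to a separate ribosome inside mitochondria, with a median of 0.12. It was higher for 24 of 28 genes with proteasome subunit prefixes (median 0.080) and 47 of 58 genes with respiratory chain prefixes (median 0.13). After maternal LPS, 18 of 53, 7 of 28 and 24 of 58 genes of these groups were higher, with medians of -0.032, -0.13 and -0.030. Between these groups and the cytosolic ribosomal proteins no difference was tested.

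**Figure D4:**
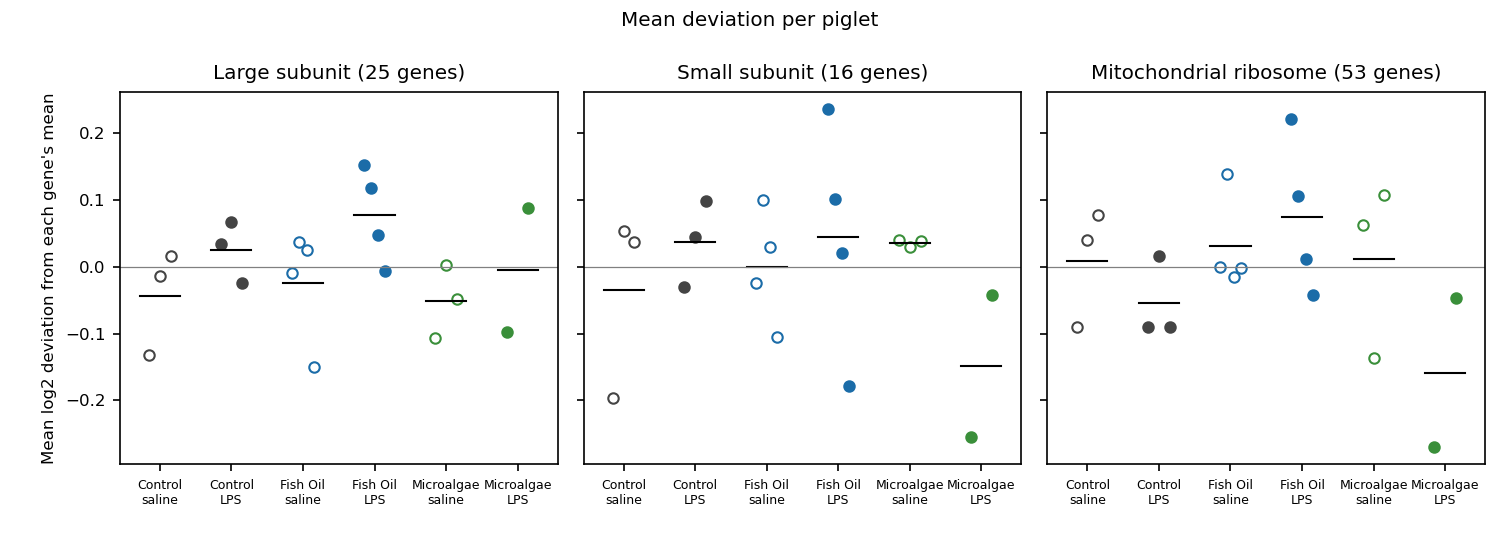
Mean log2 deviation from each gene's own mean in each piglet (points; open for maternal saline, filled for maternal LPS) and the group mean (line), for the large subunit, the small subunit and the mitochondrial ribosome. The fish oil LPS piglet at the top of all 3 panels is piglet 10, and the microalgae LPS piglet at the bottom of the small-subunit and mitochondrial panels is piglet 7, at -0.26 and -0.27.

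Within the set, the genes did not rise and fall together as 1 block. Over the 19 piglets the 820 pairs of genes had a median Pearson correlation of 0.19, with 546 pairs above 0 and 274 below. At a Benjamini-Hochberg adjusted p under 0.05 over the 820 pairs (permutation test, 100000 resamples, two-sided), 108 pairs were positive and 21 negative. Pairs of other probe sets were not counted, so it is not known whether these shares are particular to ribosomal proteins. The median was 0.19 within groups, after each group's mean was taken out, and 0.24 with array spread taken out.

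The highest correlation was that of RPL4 and RPS10, r = 0.92 and Spearman's rho = 0.88 over 19 piglets (permutation p 1e-05 for both, the smallest the resamples can give, adjusted p 0.0010 and 0.0012). It was 0.93 without the 2 piglets farthest from the median of RPL4, 0.91 within groups and 0.83 with array spread taken out. RPL4 also went with RPS4X (r 0.89), RPL5 (0.87) and RPS12 (0.86), and RPL14 with RPS4X (0.88), and these pairs, apart from RPL4 with RPL5, join a large-subunit to a small-subunit gene. RPL38 and RPL5 had r = 0.85, which stayed at 0.85 with array spread taken out. A second set of genes held RPL8, RPLP0 and RPL10A, with r = 0.82 for RPL8 and RPLP0 and 0.79 for RPL10A and RPLP0.

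RPS20, which like RPS10 is marked with ubiquitin when ribosomes collide, ran opposite to the first set. RPS20 in control-diet piglets measured 6.16, 5.39 and 5.34 in saline offspring and 5.96, 5.25 and 5.38 in LPS offspring. RPS20 in fish oil piglets was 5.98, 5.20, 5.45 and 5.40 in saline offspring and 5.44, 5.47, 5.33 and 5.66 in LPS offspring. RPS20 in microalgae piglets came to 5.41, 5.13 and 5.17 in saline offspring and 5.71 and 5.51 in LPS offspring. The high values were those of piglets 8, 9 and 6, which had low RPL4. RPS20 and RPL4 had r = -0.87 and rho = -0.83 (adjusted permutation p 0.0010 and 0.0022), -0.80 without the 2 piglets farthest on RPL4, -0.91 within groups and -0.76 with array spread taken out. RPS20 also ran against RPL7L1 (r -0.80) and RPS10 (-0.78), and RPL7L1 ran against RPS3 (-0.72) and RPL31 (-0.69).

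Array spread moved with many of these genes. RPL7L1 had r = 0.82 and rho = 0.85 with it over 19 piglets (permutation test, adjusted p 0.00082 and 0.00041 over 41 genes), and 0.88 without piglets 24 and 6, the farthest from the median spread. RPS10 had 0.74, RPS4X and RPL14 0.73, RPS12 and RPL4 0.72, and RPS20 had -0.66, RPL8 -0.63 and RPL31 -0.59. At an adjusted p under 0.05, 11 genes were positive and 3 negative. An r beyond 0.5 in size was found for 16 of 41 genes, 39%, against 37.3% of all probe sets tested, so the cytosolic ribosomal proteins did not stand apart here.

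**Figure D5:**
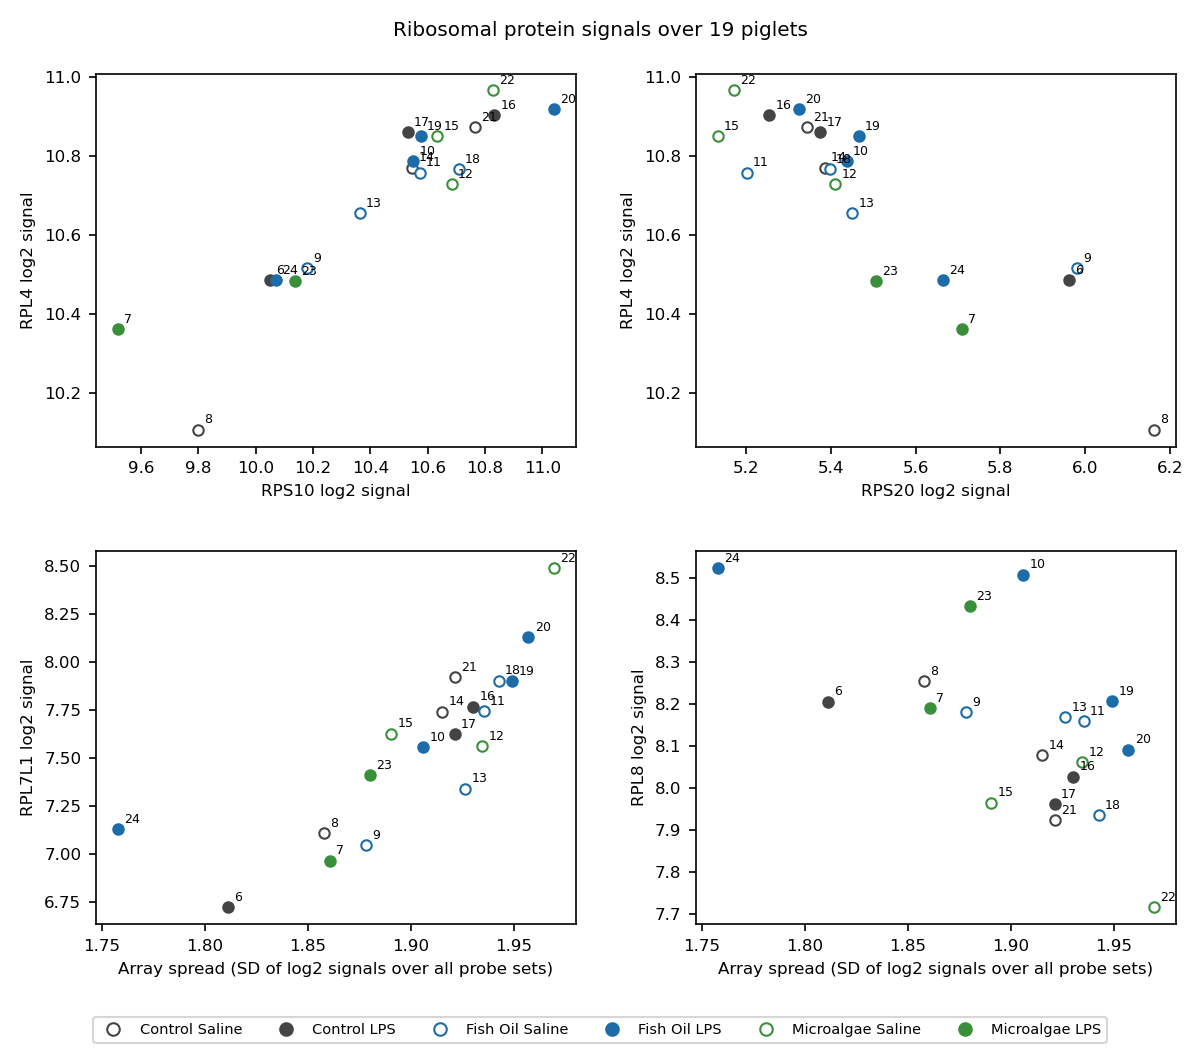
Log2 signals of RPL4 against RPS10 and RPS20, and of RPL7L1 and RPL8 against array spread (SD of all log2 signals of the array), 1 point per piglet with its number, coloured by diet and filled for maternal LPS. RPL4 rises with RPS10 (r 0.92) and falls with RPS20 (r -0.87), and piglets 24 and 6 lie at the low end of array spread.

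For 10 of the 43 symbols the array held more than 1 probe set. The values were identical for RPL7L1, RPL8 and RPS27A, which are therefore 1 measurement each. For RPL36AL (r 0.89), RPS16 (0.74) and RPS3 (0.74) the other probe set followed the one used over the 19 piglets. It did not for RPL19 (0.18), RPS3A (0.039), RPL10A (-0.090) and RPL13A (-0.37). The second RPL19 probe set differed by 0.057 after maternal LPS, against 0.22 for the one used, the second RPS3A probe set by 0.27 against 0.0027, and the second RPS3 probe set by 0.31 against 0.14. Ribosomal protein genes have many processed copies in mammalian genomes, and binding of transcripts from such copies or from paralogues to these probe sets was not tested.

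Genes that make or regulate ribosomes were measured beside the subunits. After maternal LPS, 35 of 46 ribosome biogenesis factors were higher (median 0.058, beside 51.8% of all probe sets). At an unadjusted p under 0.05 there were 2, a share near the 3.37% of all probe sets, PPAN at 0.31 ± 0.088 and IMP3 at 0.36 ± 0.14, both needed for processing of ribosomal RNA precursors. Of 12 RNA polymerase I genes and their factors, 9 were higher (median 0.14), with MYCN at 0.32 ± 0.11 and the polymerase subunit POLR1B at 0.31 ± 0.14, while MAX was at -0.24 ± 0.10. Of 13 regulators of TOP mRNA translation 3 were higher (median -0.061), with MTOR itself at -0.15 ± 0.088. None of these passed the adjusted threshold, with adjusted p of 0.43 for PPAN and 0.61 for MYCN in limma.

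Of 13 other TOP mRNAs 7 were higher after maternal LPS (median 0.027). Translation factors were higher for 8 of 28 (median -0.049) and 4 of 9 ribosome quality control genes were (median -0.024). FAU, a small-subunit protein made as a fusion with a ubiquitin-like protein and named outside the RPL and RPS scheme, was at -0.011 after maternal LPS and at -0.13 with microalgae. With fish oil, 23 of 46 biogenesis factors, 5 of 12 polymerase I genes and 8 of 13 other TOP mRNAs were higher. With microalgae these counts were 16, 7 and 7, and LSG1, a GTPase of late large-subunit assembly, was at -0.66 ± 0.19 (unadjusted p 0.0033, adjusted p 1 in limma). No gene of these lists passed the adjusted threshold in the 4 comparisons.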

How the data were processed

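Whole adrenal RNA was extracted with the RNeasy Mini kit and labelled with the Affymetrix WT PLUS reagents, per the labels' protocols, and values were made in Transcriptome Analysis Console 4.0, per the submitters' processing notes. The table deposited by the authors holds log2 signals, with base 2 inferred from their range, 0.26 to 13.5. How the authors summarized and normalized them, and the genome build, are not given in the sources used here, and no further scaling was applied. Groups came from the labels. Of 27558 probe sets, 13157 had 1 gene symbol in the platform annotation, 523 several and 13878 none.

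Probe sets were ranked by mean signal, the lowest 25% were dropped, and 20668 were tested. limma 3.58.1 (R 4.3.3) fitted 1 mean per group over all 6 groups, with an intensity trend, 13 residual and 4.62 prior degrees of freedom, two-sided tests, and adjusted p-values (Benjamini-Hochberg) over the whole table at 0.05. The ± beside a difference is its standard error. Correlations used permutation tests with 100000 resamples (NumPy 2.4.6). The scripts were tested on simulated data.

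Named were, per comparison, the 5 largest differences in each direction and any member at an unadjusted p under 0.05, the 3 smallest p in each direction for the interactions, the 5 widest and 5 narrowest SDs, and, whatever their values, the stalk proteins, RPL5, RPL13A, RPL38, RPS3, RPS6, RPS27A and the paralogues. Other members named were chosen after their values were seen. From other lists at most the 3 genes with the smallest p were named. The members, lists and tests were chosen with earlier results of these data known, so no list was tested as a set. Each sow gave 1 piglet, and the labels record no batch. The number of arrays limits the precision. Alternatives were other filters, scalings, covariates and weights, an additive model, all probe sets of a symbol, and leaving out piglets.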

Additional observations from a re-analysis of the deposited data

Results flagged for a closer look

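In fish oil offspring of saline sows, 1 of the 4 piglets stood apart from the other 3 in several genes, as judged by the gap between it and its nearest neighbour as a share of the group's range. Piglet 18 was the low one for RPL10A (7.395, the others 7.906 to 7.916), RPL26L1 (5.457, the others 6.100 to 6.161), RPL31 (5.855, the others 6.501 to 6.574), RPL34 (9.455, the others 9.790 to 9.842), RPL8 (7.936, the others 8.159 to 8.180) and RPLP0 (8.516, the others 9.012 to 9.021). Piglet 11 was the high one for RPL21 (8.359, the others 8.067 to 8.111) and RPS16 (8.775, the others 8.522 to 8.558). These are 8 of 82 checks in the groups of 4 piglets, all in 1 group, and chance gives about 1 in 20 for independent genes, which these are not.

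The maternal LPS difference was unequal between diets, at an unadjusted p under 0.05 in a test of the interaction, for RPLP2 with fish oil (0.522), and for RPS12 (-0.966) and RPS10 (-0.987) with microalgae. None of the 3 passed the adjusted threshold in limma, where the adjusted p was 1 for RPLP2 and 0.86 for the others.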

How the results depend on the processing

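In 30 alternatives, 19 of which leave out 1 piglet each and 1 of which (without piglets 6 and 24 together, the arrays with the lowest spread) was chosen after seeing the data, 0 members passed the adjusted threshold in limma in any of the 13 comparisons. Of 52 results for single members, 43 kept their direction throughout. With each array centred on its median, 1 member in place of 4 was higher after maternal LPS at an unadjusted p under 0.05, and the median difference of maternal LPS in the microalgae diet was -0.15 in place of -0.049. Centring shifted the differences of all probe sets alike, so that shift is not particular to the members. After quantile normalization the median of the microalgae interaction was -0.016 in place of -0.11. With all probe sets of a symbol averaged, RPL13A was at -0.071 for maternal LPS, 0.071 for fish oil and 0.018 for fish oil against microalgae. RPS4X was at 0.0070 for maternal LPS with array spread as a covariate, RPS20 at 0.0022 for fish oil with array weights, and RPS3 at 0.0049 with median centring and 0.029 with the medulla score for fish oil against microalgae. The cause was not tested.

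Leaving out 1 piglet gave these ranges. Without piglet 23, 8 members were higher with microalgae, and without piglet 7, 24 were. The members higher after maternal LPS at an unadjusted p under 0.05 numbered 1 and 6 without the same 2 piglets. Without piglet 23 the median difference after maternal LPS was -0.0074, and 19 of 41 members were higher. Medians ran from -0.099 to 0.11 for maternal LPS in the microalgae diet, from -0.18 to 0.0028 for the microalgae interaction and from -0.21 to 0.046 for microalgae after LPS, each lowest without piglet 23 and highest without piglet 7. With 1 piglet left in that group, it is assumed to vary like the other groups. For fish oil, RPL31 ran from -0.13 to 0.013, RPL7L1 from -0.049 to 0.21, RPS20 from -0.17 to 0.043 and RPS25 from -0.14 to 0.026, and RPS3 ran from -0.078 to 0.029 for fish oil against microalgae. No paired analysis was possible because the labels give no replicate numbers shared between groups. The promoter motif alternative was not run, since no promoter sequences were used here.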
